A study of Strongylocentrotus purpuratus with 10 samples.

Results

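Runs of neighbouring candidate regulatory elements present in the 12 h list and missing from the 20 h list were described in the purple sea urchin, *Strongylocentrotus purpuratus*. A run was defined by position alone. Peaks of the same list less than 500 bp apart were merged into regions, both lists were pooled and ordered along each scaffold, and a run was 3 or more consecutive 12 h regions that overlapped no 20 h region, with no 20 h region between them and no gap above 10 kb. This gave 222 runs with 733 regions, out of 31840 merged 12 h regions and 52371 pooled regions of both stages. The runs lay on 206 scaffolds. The overlap between the lists chose the members, so the absence of 20 h regions inside a run is the rule and not a result.

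The study profiled nascent transcription by PRO-seq in whole embryos reared at 15 °C, with 6 libraries from 20 h and 4 from 12 h embryos, which the labels number as 4 and 3 biological replicates. The labels call both ages hatching blastulae, and the embryos came from wild animals in different batches. The reads of each stage were pooled before dREG called the peaks, so each stage is 1 list with no replicate error, and no test or p-value is given below. The methods name fewer biological replicates than the labels, so which libraries entered each list is uncertain, and by their totals the 20 h pool was the deeper of the pair. Stage, depth and embryo batch cannot be told apart between the lists, and a region missing from the 20 h list was not called there, which is not evidence that its transcription had stopped.

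PRO-seq marks where engaged RNA polymerase stands. Active promoters and enhancers often start short nascent transcripts on both strands, and dREG recognises that shape and gives each peak a probability. Elements close to each other along a chromosome can act on the same gene, which makes a stretch of neighbours that appear or disappear together a natural unit to look at. A blastula is the hollow ball of cells that forms before gastrulation, at the time when the territories of the sea urchin embryo are being specified.

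Of the merged regions, 20646 of 39851 at 20 h (51.8%) and 12664 of 31840 at 12 h (39.8%) overlapped no region of the other stage. They are called 20 h-only and 12 h-only below. The 2 lists shared 19061 connected groups of overlapping regions. The 733 members of runs were 5.79% of the 12 h-only regions (95% Wilson interval 5.39 to 6.21%, counting error only). Most 12 h-only regions stood elsewhere, 9427 of them alone and 2504 as 1252 pairs by the same rule of neighbourhood. Isolated 12 h-only regions were thus far more frequent than regions in runs.

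Most runs were as small as the rule allows. There were 177 runs of 3 regions, 32 of 4, 6 of 5, 5 of 6 and 2 of 7. Their span, from the first base of the first region to the last base of the last, had a median of 9635 bp (quartiles 6752.5 and 12895 bp) and reached from 2260 to 27740 bp. Runs of 3 regions had a median span of 8630 bp and the 45 larger runs one of 14490 bp. All runs together spanned 2.29 Mb, of which the member regions covered 15.1%.

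The 511 gaps between neighbours in a run had a median of 3210 bp (quartiles 1570 and 5670 bp). The median of the 28531 gaps of at most 10 kb between consecutive pooled regions of any kind was 3130 bp. The same cap of 10 kb bounds both sets, so the rule bears on how close these medians are. At the low end the sets differ, as merging within a list keeps members apart (lowest gap 510 bp) while pooled gaps start at 0 bp. Gaps under 1 kb made up 61 of the 511. In 103 of 222 runs every gap was under 5 kb. At the edge of the rule, 15 runs held a gap of 9 to 10 kb, and a limit of 11 kb would add or lengthen 22 runs and bring the total to 238.

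**Figure D1:**
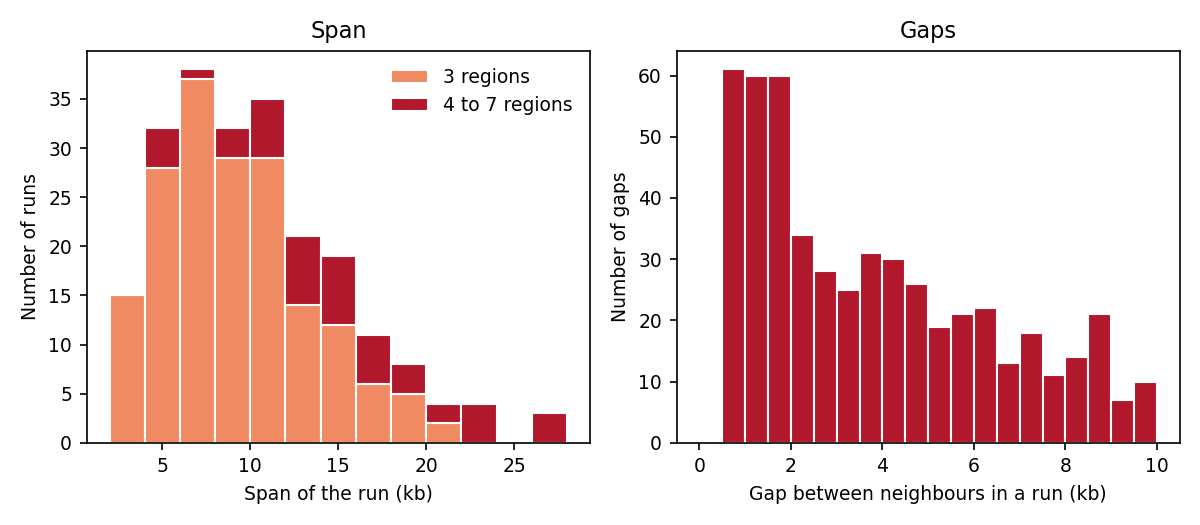
Histograms of the span of the 222 runs lost by 20 h, in kb, by number of regions (left), and of the 511 gaps between neighbouring regions of a run, in kb (right). Spans reach from 2260 to 27740 bp with a median of 9635 bp, and short gaps are the most frequent, with a median of 3210 bp.

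The largest runs show what such a stretch looks like, and the coordinates below are those of version 3.1 of the genome. On Scaffold315, 466331 to 489770, a run of 7 regions spanned 23440 bp. Its regions were 450, 320, 260, 570, 370, 210 and 340 bp wide, in order along the scaffold. Each was a single peak. The fifth and the sixth were listed at a probability of 1, and the lowest probability in the run was 0.981. Gaps ran from 510 to 8590 bp. The next region on the left was shared by both stages and 8010 bp away, and the next on the right was 20 h-only and 27650 bp away.

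The other run of 7 regions, on Scaffold346 at 20381 to 41300, spanned 20920 bp. Its first and last regions were the widest, at 1170 and 940 bp with 2 peaks each, and the 5 between them were 210 to 420 bp wide. The best probability of a region ranged from 0.953 to 1, with 2 regions at 1. No pooled region was listed to its left, and the nearest 20 h region on the right was 49310 bp away. The run combined calls of higher and lower probability in a stretch where no 20 h region was listed until well beyond its right edge.

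The 5 runs next in size held 6 regions each. The run on Scaffold15 at 770641 to 798380 had the longest span of all, 27740 bp. Its regions were 1320, 610, 300, 1100, 680 and 240 bp wide, with 3 peaks each in the first and the fourth, and only the last reached a probability of 1. On Scaffold2333, at 45491 to 72870, a run spanned 27380 bp and its regions covered 4400 bp, the highest summed width of any run. Its widest region was 1570 bp with 3 peaks, and none was listed at a probability of 1. That scaffold held 1 20 h-only and 1 shared region against 7 12 h-only regions.

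On Scaffold542, 349341 to 372300, 6 single-peak regions spanned 22960 bp between 20 h-only regions 2470 bp to the left and 10480 bp to the right. On Scaffold726, 125711 to 146500, a run spanned 20790 bp, with a region of 910 bp at a probability of 1 as its widest. The scaffold carried a second run of 3 regions, and in all 3 20 h-only, 14 12 h-only and 4 shared regions. On Scaffold1061 a run spanned 16510 bp from position 591 to 17100, with 6 single-peak regions of 240 to 570 bp, and the nearest 20 h region was 45030 bp away.

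Among the runs of 5, that on Scaffold505 at 164491 to 183560 had the longest span, 19070 bp. It held a region of 2010 bp made of 4 peaks, 2 of them at a probability of 1, beside regions of 240 to 490 bp. Of its 5 regions, 2 had a best probability under 0.99. The run of shortest span lay on Scaffold510 at 157711 to 159970, where regions of 260, 330 and 310 bp stood 600 and 760 bp apart. All were strong calls, as 1 minus the best probability was 5.18e-05 in the weakest of them. The next region to the left was shared and 7700 bp away.

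**Figure D2:**
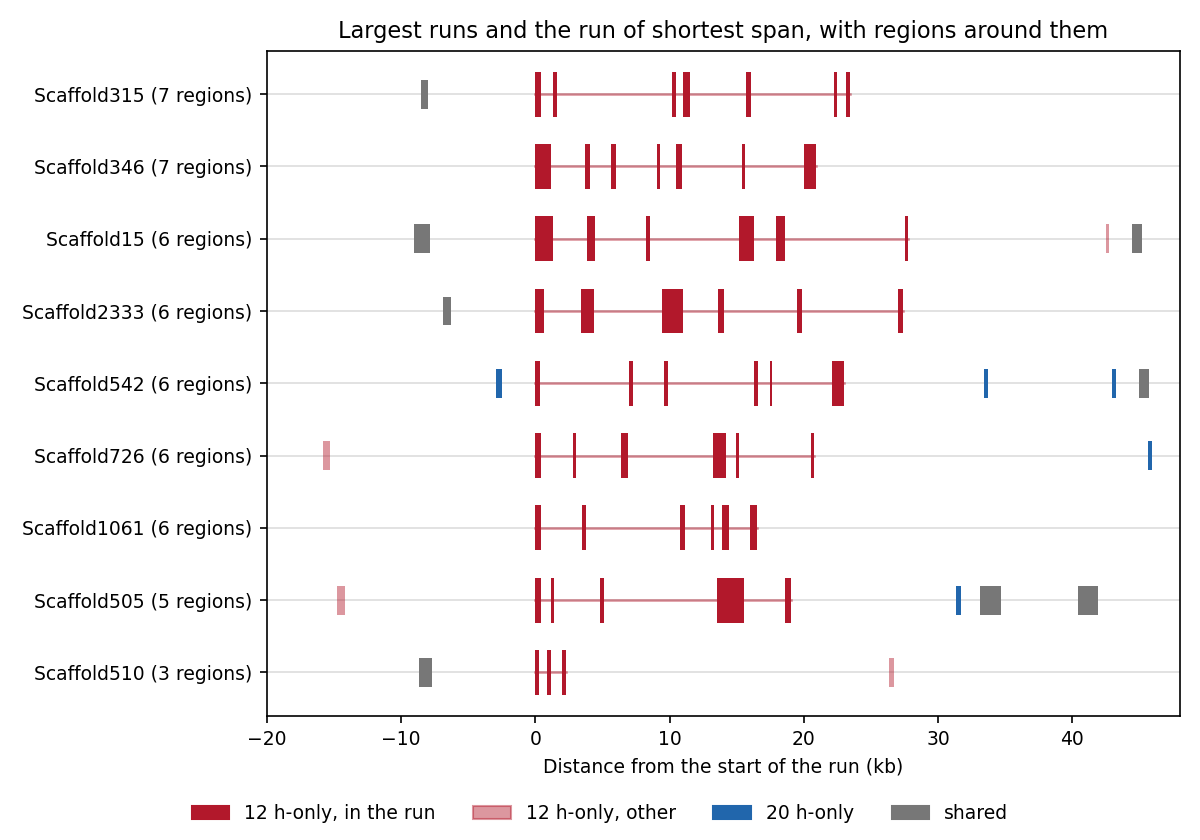
Positions of regions in the 8 runs with most regions and, at the bottom, the run of shortest span, drawn to scale as the distance in kb from the start of each run (20 kb before to 48 kb after). Tall red boxes are the members of the run, pale red boxes other 12 h-only regions, blue boxes 20 h-only regions and grey boxes regions shared by both stages. The runs of 7 regions on Scaffold315 and Scaffold346 stand at the top, and the 3 regions on Scaffold510 fit within 2260 bp.

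Calls of different probability stood side by side in most runs. Of the 222 runs, 116 (52.3%) held at least 1 region with a peak at a probability of 1, 30 held at least 2, and 1 held it in every region. It was the run of 3 on Scaffold1622 at 40921 to 46360, with regions of 400, 290 and 260 bp. In 81 runs (36.5%, 95% Wilson interval 30.4 to 43.0%) every region had a best probability of at least 0.99, and in 5 runs none did. Of all 733 members, 20.6% held a peak at a probability of 1 and 27.4% had a best probability under 0.99. Mixed runs would arise from these shares alone. The counts of runs were not compared with those that the shares would give. Among shared 12 h regions 20.2% held a peak at a probability of 1, so that value is not read here as the strongest support. Width varied as well, as the widest region of a run was a median of 2.02 times as wide as the narrowest (quartiles 1.54 and 2.71).

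Members were set beside the 12 h-only regions outside runs, a contrast within the 12 h list. The median width was 390 bp in runs (quartiles 300 and 540 bp) and 360 bp outside (280 and 480 bp). The mean was 471 ± 279 bp in runs and 415 ± 207 bp outside (SD over 733 and 11931 regions). Pairs and single regions both had a median of 360 bp. The difference did not hold scaffold by scaffold. On 144 scaffolds with a run and at least 3 other 12 h-only regions, the median width was higher in runs on 69, lower on 72 and tied on 3.

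Regions in runs were made of several peaks more often. A single peak made up 83.5% of regions in runs (95% Wilson interval 80.6 to 86.0%) and 90.8% outside (90.3 to 91.3%). The 733 regions held 884 peaks. The rule that merges peaks under 500 bp apart and the density of peaks both act on this share, and their part was not tested. In runs gained at 20 h, found with the stages exchanged, 82.0% of regions were a single peak (80.9 to 83.0%) and the median width was 400 bp. These values were thus not particular to runs lost by 20 h. The widest member was the middle region of a run on Scaffold1339, 219321 to 222160, with 2840 bp and 5 peaks.

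The support that dREG gave was spread over the same range inside and outside runs. Taking 1 minus the best probability of a region as its p, a rank within the list and not a test result, the median p was 0.000725 in runs and 0.00152 outside. It was lower in runs on 86 of the 144 scaffolds and higher on 58. A best probability under 0.99 was found for 27.4% of regions in runs (95% Wilson interval 24.3 to 30.8%) and 32.0% outside (31.1 to 32.8%). A peak at a probability of exactly 1 was found in 20.6% of regions in runs (17.8 to 23.7%) and in 22.7% outside (22.0 to 23.5%), and these intervals overlap. Members were therefore not the weakest 12 h-only calls.

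Against regions that both stages shared, members were narrower and had a higher median p, as 12 h-only regions did in general. The 19176 shared 12 h regions had a median width of 570 bp and a median p of 2.04e-06. Overlap is more likely for a wide region, so this contrast is not independent of the rule. Within runs, the 444 regions at the ends had a median width of 390 bp and the 289 inner ones 380 bp, and their median p was 0.000756 and 0.000725.

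**Figure D3:**
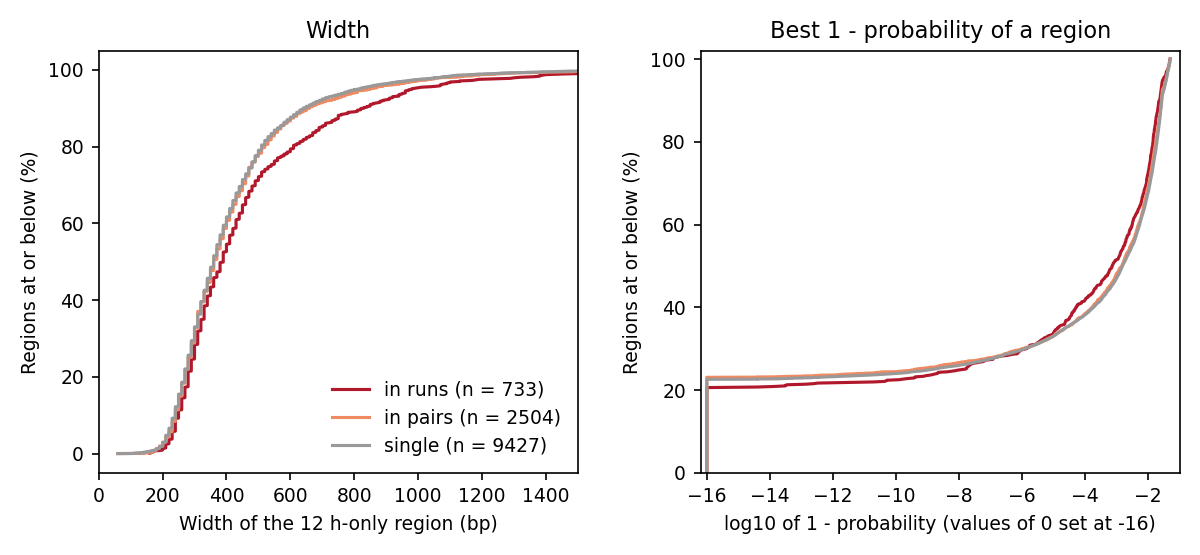
Cumulative share of 12 h-only regions, in percent, by width in bp (left) and by the log10 of 1 minus the best probability (right, values of 0 drawn at the left edge), for regions in runs, in pairs and single. The curve of runs lies to the right in width, with a median of 390 bp, and the curves of pairs and single regions nearly coincide, while in the right panel all 3 start near 20.6 to 23.1% of regions at a probability of 1.

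The number of runs was compared with what the same regions would give if stage labels were placed without regard to neighbours. The positions of the pooled regions were kept, and the mean number of runs over all orders of the labels (shared, 12 h-only and 20 h-only) within each scaffold was worked out by formula. The rule used the same labels, so this is a description and carries no p. The 222 runs observed (95% exact Poisson interval 194 to 253, counting error only) stood beside a mean of 199.9, a ratio of 1.11, and the mean lay within the interval. With labels reordered over all scaffolds the mean was 203 and the ratio 1.09. This closeness depends on the merging of peaks less than 500 bp apart. Without merging there were 656 runs against a mean of 402.7, a ratio of 1.63, and with only peaks 20 bp apart or closer joined 340 against 253.3, a ratio of 1.34. In these settings close peaks of the same 12 h-only region count as separate neighbours and can form or lengthen a run. How far this raises the ratio was not tested. Merging within a list keeps 12 h-only regions at least 500 bp from each other, while pooled regions of unlike kinds could lie closer. Reordering can set 12 h-only labels on such close neighbours, which the lists cannot show, and how far this moves the mean was not tested. With 12 h regions that had a 20 h peak within 500 bp not counted as 12 h-only, the ratio was 1.22. For 1 kb it was 1.35. The runs numbered 218 and 205 in these settings, while the mean fell to 178.2 and 152.0. The rule keeps 20 h regions away from inner members, so it bears on this rise.

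The larger runs stood further from that mean. Runs of at least 4 regions numbered 45 against a mean of 32.0, those of at least 5 numbered 13 against 4.80, and those of at least 6 numbered 7 against 1.16. The ratios were 1.41, 2.71 and 6.06. The counts behind them are small, and the exact Poisson interval for the 7 runs was 2.81 to 14.4. The classes are nested, as the 7 runs are also among the 13 and the 45, so the ratios are not separate results. Runs gained at 20 h showed a rise with size as well, given below.

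Runs lost by 20 h were fewer than runs gained at 20 h, found by the same rule with the stages exchanged. The 222 lost runs held 5.79% of the 12 h-only regions, against 1323 gained runs with 4965 regions, or 24.0% of the 20 h-only regions. The ratio to the mean over label orders was 1.11 for lost runs and 1.47 for gained runs, whose mean was 897. The longest lost run held 7 regions and the longest gained run 13. The mean keeps the number of labels of each kind on a scaffold, and whether ratios can be compared at unlike numbers of labels was not tested. The ratio of gained runs rose with run size too, to 1.99, 2.75 and 4.10 for at least 4, 5 and 6 regions. At 6 or more regions it was below the 6.06 of lost runs, which rests on 7 lost runs. The order of the ratios also depended on the processing. Without merging it turned round, to 1.63 for lost and 1.51 for gained runs, and likewise with a probability of at least 0.99 asked at 12 h only, to 1.32 and 1.29. With the 20 h list reduced to as many peaks as the 12 h list, by highest probability, there were 358 lost runs with a ratio of 1.06 and 808 gained runs with a ratio of 1.77. The part of read depth was not tested.

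**Figure D4:**
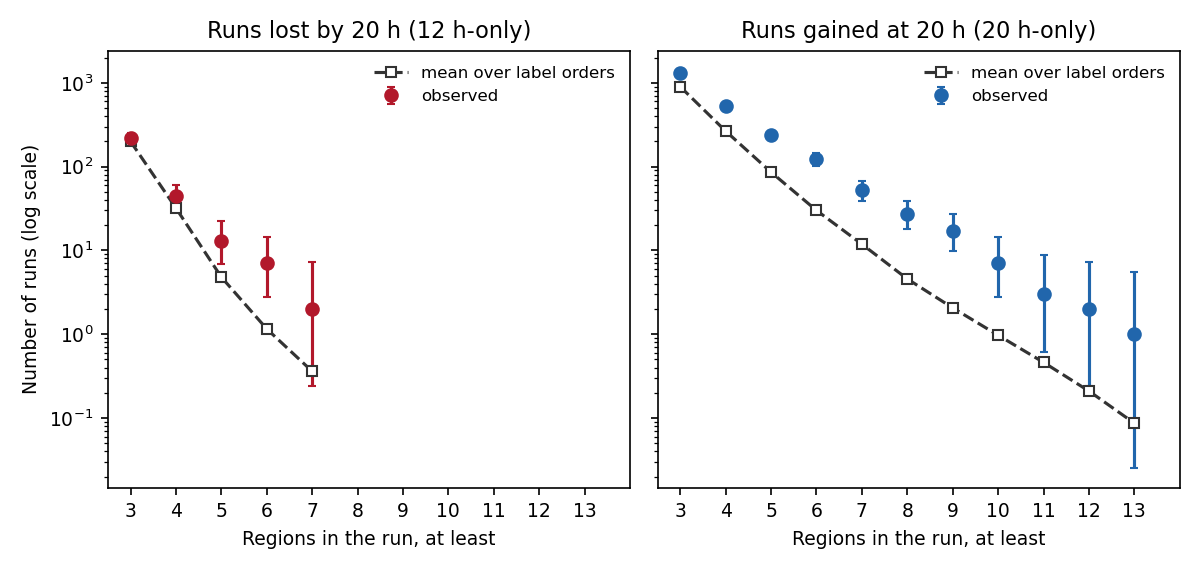
Number of runs, on a log scale, with at least the number of regions on the x axis, for runs lost by 20 h (left) and gained at 20 h (right). Filled points are the observed counts with 95% exact Poisson intervals, and open squares are the mean over all orders of the stage labels within scaffolds. At 3 or more regions the lost runs stand at 222 against 199.9 and the gained runs at 1323 against 897.

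The 444 flanks of the runs, left and right, were described by the next region of the pooled lists. It was shared in 186 cases (41.9%, 95% Wilson interval 37.4 to 46.5%), 20 h-only in 137 (30.9%, 26.7 to 35.3%) and a 12 h-only region over 10 kb away in 60 (13.5%). In 61 cases (13.7%) no further region was listed on the scaffold. For single 12 h-only regions these shares were 37.2, 34.7, 13.4 and 14.7%. Of all pooled regions, 36.4% were shared, 39.4% 20 h-only and 24.2% 12 h-only. The rule bars a 12 h-only flank within 10 kb, so flanks and pooled regions are not alike. Among flanks called at 20 h, 57.6% were shared around runs (52.1 to 62.9%) and 51.7% around single regions (50.9 to 52.6%), and these intervals overlap. Among the flanks called at 20 h within 10 kb, 112 of 179 were shared around runs (62.6%, 55.3 to 69.3%), against 52.4% around single regions (51.2 to 53.5%), and here the intervals do not overlap. Pairs stood between, at 54.7%. Neighbouring flanks share scaffolds and are not independent, so the intervals are the least error these shares can have.

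Both flanks were shared in 43 runs, both were 20 h-only in 25, and 54 runs had a shared region on 1 side and a 20 h-only region on the other. The next region was 7970 bp away in the median where it was shared and 10410 bp where it was 20 h-only. A flank called at 20 h within 1 kb was found on 23 of the 444 sides, and within 10 kb on 179. Runs with 20 h regions on both sides numbered 163, and the stretch around them free of 20 h regions had a median of 46400 bp (quartiles 24140 and 65555 bp). The median gap between consecutive 20 h regions overall was 8520 bp, but a run needs a long gap to fit in, so the rule itself favours such stretches.

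**Figure D5:**
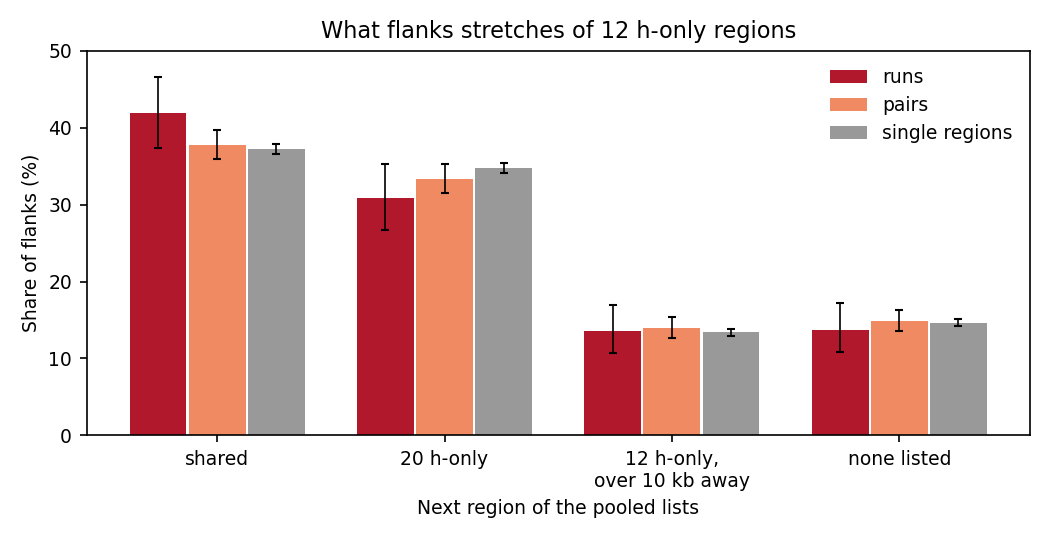
Share of flanks, in percent with 95% Wilson intervals, by the kind of the next region of the pooled lists, for runs (444 flanks), pairs and single 12 h-only regions. Around runs 41.9% of flanks are shared and 30.9% are 20 h-only, against 37.2 and 34.7% around single regions, and the other kinds stand at like levels.

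Few members had a 20 h region close by, and whether such neighbours are 1 element called at shifted positions was not tested. A 20 h region at a gap under 500 bp was found for 5 of 733 members (0.682%) and for 4.69% of 12 h-only regions outside runs, and a gap under 1000 bp for 20 members (2.73%) and 10.2% outside. Since inner members have other members next to them, the rule lowers this share. When 12 h regions with a 20 h peak within 1 kb were not counted as 12 h-only, 205 of the 222 runs remained at least in part.

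The runs were scattered. Of the 206 scaffolds with a run, 190 held 1 and 16 held 2, and none held more. A run was found on 13.4% of the 1537 scaffolds with at least 3 12 h-only regions. On 11 scaffolds with a run no 20 h region was listed at all, so whether 20 h reads covered them is unknown. Without those scaffolds 211 runs remained. On 90 of the 206 scaffolds (43.7%) a gained run was present as well (95% Wilson interval 37.1 to 50.5%), which is 11.4% of the 787 scaffolds with gained runs. A gained run was found on 17.4% of all 4534 scaffolds with a pooled region, and on 39.7% of the 1331 scaffolds with at least 3 12 h-only regions but no lost run (37.1 to 42.3%). Scaffolds with a lost run held a median of 25 pooled regions, and those 1331 a median of 20. A gained run within 10 kb was found for 7 of the 222 runs.

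No run could be given a gene, exon or intron, as no annotation of version 3.1 was used here. The only loci named in the study's tables are those of 389 regions tested as reporter constructs near developmental regulatory genes, and their positions were compared with the runs. None of the 222 runs lay within 10 kb of a tested region. This says little about the runs, since such a distance was rare for 12 h-only regions of any kind, at 0 of 733 in runs, 2 of 2504 in pairs and 19 of 9427 single ones (0.202%). On 4 scaffolds with 57 tested regions a run was present. The closest was a run of 3 on Scaffold119 at 680831 to 696520, which was 88.7 kb from the nearest construct of Dlx, a homeobox gene. Runs on the scaffolds of Gsc, a homeobox gene, Elk, an ETS family gene, Prox and FoxG, a forkhead gene, were 287, 344, 397 and 1538 kb away. Of the tested regions 92 overlapped a 12 h region and 11 a 12 h-only region.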

How the data were processed

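Per the methods of the study, the authors ran proseq2.0 on the PRO-seq reads against genome version 3.1 of this species, joined the replicates of each stage and called peaks with dREG. Tool versions and the probability threshold are not given in the sources used here. Each deposited list holds scaffold, start, end and a fraction, the probability that the authors obtained from dREG for a peak (lowest 0.950 in both lists). The number of reads per peak or library is unknown.

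Peaks of a list less than 500 bp apart were merged (56753 peaks at 20 h and 43912 at 12 h), and overlap meant at least 1 bp. Merging and overlap were checked against bedtools, and the formula for label orders against all orders on small simulated scaffolds. Python 3.11.15, numpy 2.4.6, pandas 2.3.3, scipy 1.17.1 and matplotlib 3.10.9 were used. Shares have Wilson intervals for counting error, which treat regions as independent.

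Members, rules and alternatives were chosen with earlier results of these data known. The runs named were the 8 with most regions (ties by span), those of longest and shortest span, and that of highest summed width. Runs on Scaffold1622, Scaffold1339, Scaffold1892, Scaffold234 and Scaffold119, and those on the scaffolds of the named genes, were picked after their values were seen. From the supplementary table only names and positions of tested regions were used.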

Additional observations from a re-analysis of the deposited data

How the results depend on the processing

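The number of runs, their regions, their share of 12 h-only regions, the ratio to label orders and the differences in width and in probability-1 share were recomputed under 15 alternatives. Spans, gaps, flanks, single-peak shares, median p and scaffold counts were not. The ratio of runs to their mean over label orders stayed above 1 in all 15, and the ratio of gained runs was the higher one in 13. Without merging there were 656 runs with 2280 regions, 13.9% of the 12 h-only ones, at a ratio of 1.63 (gained 1.51), and with only peaks 20 bp apart joined 340 runs, 1142 regions, 8.28% and 1.34. Merging under 1 kb gave 4.82%. A largest gap of 5 kb gave 118 runs, 380 regions and 3.001%, and one of 20 kb gave 388, 1285 and 10.1%. At least 4 regions gave 45 runs, 202 regions, 1.595% and a ratio of 1.41, and at least 5 gave 13, 74, 0.584% and 2.71. Leaving out regions with a 20 h peak within 1 kb gave a ratio of 1.35. A probability of at least 0.99 gave, at 12 h only, 105 runs, 340 regions, 3.87% and 1.32 (gained 1.29), and in both lists 4.86%. Without 12 h peaks at exactly 1 there were 146 runs, 479 regions and 4.63%. With lists of equal size there were 358, 1189 and 7.94%.

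The median width in runs minus outside, 30 bp, was 0 bp without merging and 5 bp for runs of at least 5. The share with a probability of 1, in runs minus outside, was -2.11 points and moved to -6.64 points with the limit of 0.99 at 12 h only. The other 51 of 89 values lay within the limits set for each result, which were wide. For the width difference these were 10 to 40 bp, and for the ratio 0.969 to 1.27. A width difference of 10 bp fell within them with peaks 20 bp apart joined, a largest gap of 20 kb or lists of equal size. So did 156 runs against 222, with a probability of at least 0.99 in both lists. The share at a probability of 1 was not run without the peaks at 1, as none would remain. No paired analysis was possible because the replicates of each stage were pooled into 1 list. The unknown number of reads behind each peak limits every count, and weak 20 h calls below the listed probability were not analysed here.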

Other observations

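On 3 scaffolds a pair of runs stood within 10 kb of each other, and these were picked after their values were seen. On Scaffold1339 a run of 3 regions at 199991 to 206750 was followed 5780 bp later by a run of 3 at 212531 to 225060, with 1 shared region between them. The 6 members included the widest of all, 2840 bp with 5 peaks, and a region of 1070 bp with 2 peaks. On Scaffold234 runs of 3 at 119771 to 123860 and 129131 to 136500 lay 5270 bp apart, also with 1 shared region between them. That scaffold held 31 20 h-only, 18 12 h-only and 28 shared regions, and 3 gained runs.

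On Scaffold1892 a run of 3 at 4681 to 18790 and a run of 4 at 22851 to 27590 lay 4060 bp apart, with 1 20 h-only region between them that adjoined the last region of the first run. The scaffold held 2 20 h-only regions, 11 12 h-only regions and no shared one. The 4 regions of the second run had best probabilities of 0.980 to 0.988, so a limit of 0.99 would leave none of them.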
